A study of Mus musculus with 15 samples.

Results

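The renin-angiotensin system was represented by 9 transcripts in mouse tibialis anterior, a fast muscle of the lower hind limb. They were chosen by gene symbol from the deposited table of 47643 symbols and comprised the precursor Agt, the converting enzyme Ace, the receptor Agtr1a, the receptor-binding protein Agtrap, the prorenin receptor Atp6ap2 and the peptidases Enpep, Anpep, Lnpep and Mme. All 9 had at least 1 TPM (transcripts scaled to a fixed sum per library) in at least 3 libraries, as did 11923 genes of the whole table. The 15 libraries came from female C57BL/6J mice whose age is labelled as 7 weeks. The melanoma plus lisinopril group (4 libraries) carried a cachexia-inducing melanoma xenograft and received lisinopril, an inhibitor of the enzyme encoded by Ace. The melanoma group (4 libraries) carried the xenograft and received a mock treatment. The lisinopril group (3 libraries) was mock-injected and received the drug, and the control group (4 libraries) was mock-injected and received a mock treatment. The design text places the muscles at 49 days after implantation or mock injection. How the labelled age of 7 weeks relates to these 49 days is not stated. A protocol label names another tumour model and time, and the design text was followed. The dose, route and duration of the drug, the name of the melanoma line and the genotype of the hosts beyond the strain were not stated in the labels. The labels call the libraries biological replicates.

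In the renin-angiotensin system, the protease renin cuts the secreted precursor angiotensinogen to angiotensin I, and angiotensin-converting enzyme, anchored on the endothelium, cuts that peptide to angiotensin II and also degrades the vasodilator bradykinin. Angiotensin II acts mainly through the receptor encoded in mice by Agtr1a and Agtr1b, while cell-surface peptidases shorten the angiotensins to other fragments. In skeletal muscle the system is known for its control of vessel tone and, in models of wasting, for promoting loss of muscle protein.

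Muscle identity and the libraries were examined first. Transcripts of 8 muscle fibre markers summed to 77071 to 153697 TPM in the 8 tumour-bearing libraries and to 76527 to 131039 TPM in the 7 tumour-free libraries. The libraries had 10530 (lisinopril 1) to 12363 (control 2) genes at 1 TPM or more. The read depth behind them is unknown because TPM keep no totals. Control 2 stood apart by its red blood cell transcripts (23878 TPM), and results that rest on it are given with and without it. Melanoma 2 had the highest median-ratio size factor (1.23), close to melanoma plus lisinopril 4 (1.21), and control 3 (0.785) and lisinopril 1 (0.801) had the lowest. Melanoma 2 was left out together with control 2 in an alternative. RNA of a whole muscle was measured, so more cells of a type and more RNA per cell cannot be told apart in any result below.

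The sequences upstream of Ace and Agt are shown because Ace carried the change in the tumour-bearing muscles and Agt encodes the substrate of the pathway. RefSeq promoter sequences (GRCm38.p6, the mm10 build) were matched for 8 of the 9 genes, and the 250 bases before each listed start are printed from 5′ to 3′ on the gene's strand. Capitals mark motif matches on either strand. The GC box was searched as GGGCGG. The TATA element was searched as TATAAA. For the STAT site the letters were TTCNNNGAA. The glucocorticoid receptor half-site TGTTCT, which is only a part of a full receptor element, was searched as well. The Ace upstream window lies at chr11:105967698-105967947 on the plus strand. It holds 4 GC boxes, of which the first pair overlap, 1 TATA element on the opposite strand and no match to the other 2 motifs. The second Ace window, chr11:105974939-105975188 on the plus strand, lies inside the gene and outside its annotated exons, before a second listed start, and holds none of the 4 motifs. The Agt window at chr8:124569707-124569956 on the minus strand holds 1 TATA element and 1 STAT site.
Ace, upstream start: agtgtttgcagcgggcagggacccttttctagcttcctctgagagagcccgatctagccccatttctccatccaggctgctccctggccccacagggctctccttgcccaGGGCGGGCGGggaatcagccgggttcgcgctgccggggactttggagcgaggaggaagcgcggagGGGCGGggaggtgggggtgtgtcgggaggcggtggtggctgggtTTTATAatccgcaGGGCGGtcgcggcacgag
Ace, second start: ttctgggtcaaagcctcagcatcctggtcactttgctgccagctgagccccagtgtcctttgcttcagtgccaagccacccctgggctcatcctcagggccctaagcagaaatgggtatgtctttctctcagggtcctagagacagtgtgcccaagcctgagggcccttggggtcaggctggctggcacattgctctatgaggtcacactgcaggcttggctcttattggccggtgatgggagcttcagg
Agt: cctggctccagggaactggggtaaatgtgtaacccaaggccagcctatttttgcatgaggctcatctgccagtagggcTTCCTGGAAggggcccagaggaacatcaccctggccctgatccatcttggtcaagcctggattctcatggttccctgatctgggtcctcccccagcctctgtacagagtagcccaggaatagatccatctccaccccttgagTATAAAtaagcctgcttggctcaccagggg
The upstream Ace window had 67.2% G and C, the second Ace window 58.0% and the Agt window 55.6%. Of 32851 promoter windows of the same length, 32.7% held the GC box, 12.4% the TATA element, 16.1% the glucocorticoid receptor half-site and 7.02% the STAT site. Among 11 windows of the 8 matched genes, 7 held the GC box, 3 the TATA element, 1 the glucocorticoid receptor half-site and 3 the STAT site. Mme and Ace each gave more than a single window, and windows of Mme overlap. These windows are therefore not independent, and the counts are no measure of enrichment. The matches describe these letters only. The deposited values were per gene, so transcripts from the 2 Ace starts could not be measured separately.

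Ace rose in the tumour-bearing muscles and was the only transcript of the 9 to pass the test. Averaged over both drug arms it was 3.47-fold higher, as a fold of TPM + 1, in tumour-bearing than in tumour-free muscle. This was the 51st highest of 11923 log2 fold changes. No member fell, and none of the 9 passed the test for lisinopril. Of all genes tested, 14.5% passed as higher and 3.45% as lower in tumour-bearing muscle.

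Angiotensinogen (Agt, mm10 chr8:124556534-124569706, minus strand) is the source of all angiotensin peptides and is made mostly in liver, with lower expression in other tissues. Agt had 21.2, 25.8, 8.17 and 11.5 TPM in melanoma plus lisinopril muscles and 12.6, 25.7, 13.6 and 8.59 TPM in melanoma muscles. It had 7.11, 11.5 and 5.99 TPM in lisinopril muscles and 15.2, 6.85, 6.90 and 13.9 TPM in control muscles. The 3 highest values, in melanoma plus lisinopril 1 and 2 and in melanoma 2, lay above every tumour-free library, and the other 5 tumour-bearing values lay within the tumour-free range. Agt averaged 15.9 ± 7.28 TPM in tumour-bearing muscle and 9.64 ± 3.82 TPM in tumour-free muscle (SD, n = 8 and 7). Averaged over both drug arms the tumour effect was 0.65 ± 0.28 on the log2(TPM + 1) scale (SE), with an adjusted p of 0.105 (limma with Benjamini-Hochberg adjustment over all genes tested, as for every adjusted p here), and did not pass the threshold of 0.05.

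Angiotensin-converting enzyme (Ace, chr11:105967945-105989964, plus strand) makes angiotensin II and is the target of lisinopril. Ace had 43.1, 38.2, 23.2 and 34.1 TPM in melanoma plus lisinopril muscles and 50.6, 75.5, 37.1 and 26.0 TPM in melanoma muscles. It had 6.49, 8.96 and 8.26 TPM in lisinopril muscles and 17.9, 31.1, 5.31 and 11.0 TPM in control muscles. Of the 8 tumour-bearing libraries, 6 lay above every tumour-free library. The other 2, melanoma plus lisinopril 3 and melanoma 4, lay below control 2 and above the remaining 6 tumour-free libraries. Ace averaged 41.0 ± 16.5 TPM in tumour-bearing muscle and 12.7 ± 9.09 TPM in tumour-free muscle (SD, n = 8 and 7). Without control 2 the tumour-free libraries averaged 9.66 ± 4.51 TPM (n = 6) and reached no higher than 17.9 TPM, so that the groups no longer overlapped. That was so of 1 of the 9 transcripts without control 2 and of 9.23% of all genes, which were likewise higher without overlap. With control 2, 0 of the 9 were separated and 1.49% of all genes were.

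The average tumour effect on Ace was 1.80 ± 0.30 (log2, SE), with a 95% interval of 1.15 to 2.44 and an adjusted p of 0.00282. All genes tested had a median of 0.17 in this comparison, and 1.63 remained for Ace after subtracting it. With the drug in both groups, melanoma plus lisinopril muscle had 34.6 ± 8.48 TPM of Ace and lisinopril muscle 7.91 ± 1.27 TPM (SD, n = 4 and 3). This difference was 1.98 ± 0.44 (95% interval 1.03 to 2.92, adjusted p = 0.0447), or 3.94-fold as a fold of TPM + 1. Here 4 of 4 melanoma plus lisinopril libraries lay above every lisinopril library. Ace was again the only transcript of the 9 to pass, against 1.34% of all genes that passed as higher. With the replicate number as a block, 2 of the 9 passed, Ace and Lnpep, and 356 of all 11923 genes did. Ace, Agtrap, Lnpep and Atp6ap2 (4 of 9, or 44.4%) were higher without overlap between these groups, as were 29.0% of all genes.

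Without the drug, melanoma muscle had 47.3 ± 21.3 TPM of Ace and control muscle 16.3 ± 11.1 TPM (SD, n = 4 each). The log2 difference was 1.62 ± 0.41 (95% interval 0.74 to 2.49), with 3 of 4 melanoma libraries above every control library, and its adjusted p of 0.0810 did not pass. In this comparison 0 of the 9 transcripts passed, and 0.646% of all genes did (0.461% as higher). At an unadjusted limma p below 0.05 there were 2 of 9, Ace and Mme (22.2%), and 18.5% of all genes. Leaving out control 2, the Ace difference was 1.99 and passed (adjusted p = 0.0115), while without control 3 it was 1.21 and did not pass (adjusted p = 0.186). Of all genes, 586 of 11809 passed without control 2 and 17 of 11914 without control 3. The call in melanoma plus lisinopril against lisinopril muscle depended on single libraries too. It was lost on leaving out any of 10 libraries, namely melanoma plus lisinopril 1, 2 or 4, melanoma 1 or 3, any lisinopril library, or control 1 or 4, with adjusted p of 0.0544 to 0.195 and log2 differences of 1.86 to 2.06. The average tumour effect on Ace passed on leaving out each of the 15 libraries (log2 1.59 to 1.98). The difference between the tumour effects with and without the drug was 0.36 ± 0.60 for Ace (95% interval -0.93 to 1.65, adjusted p = 0.9997), which did not pass.

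**Figure D1:**
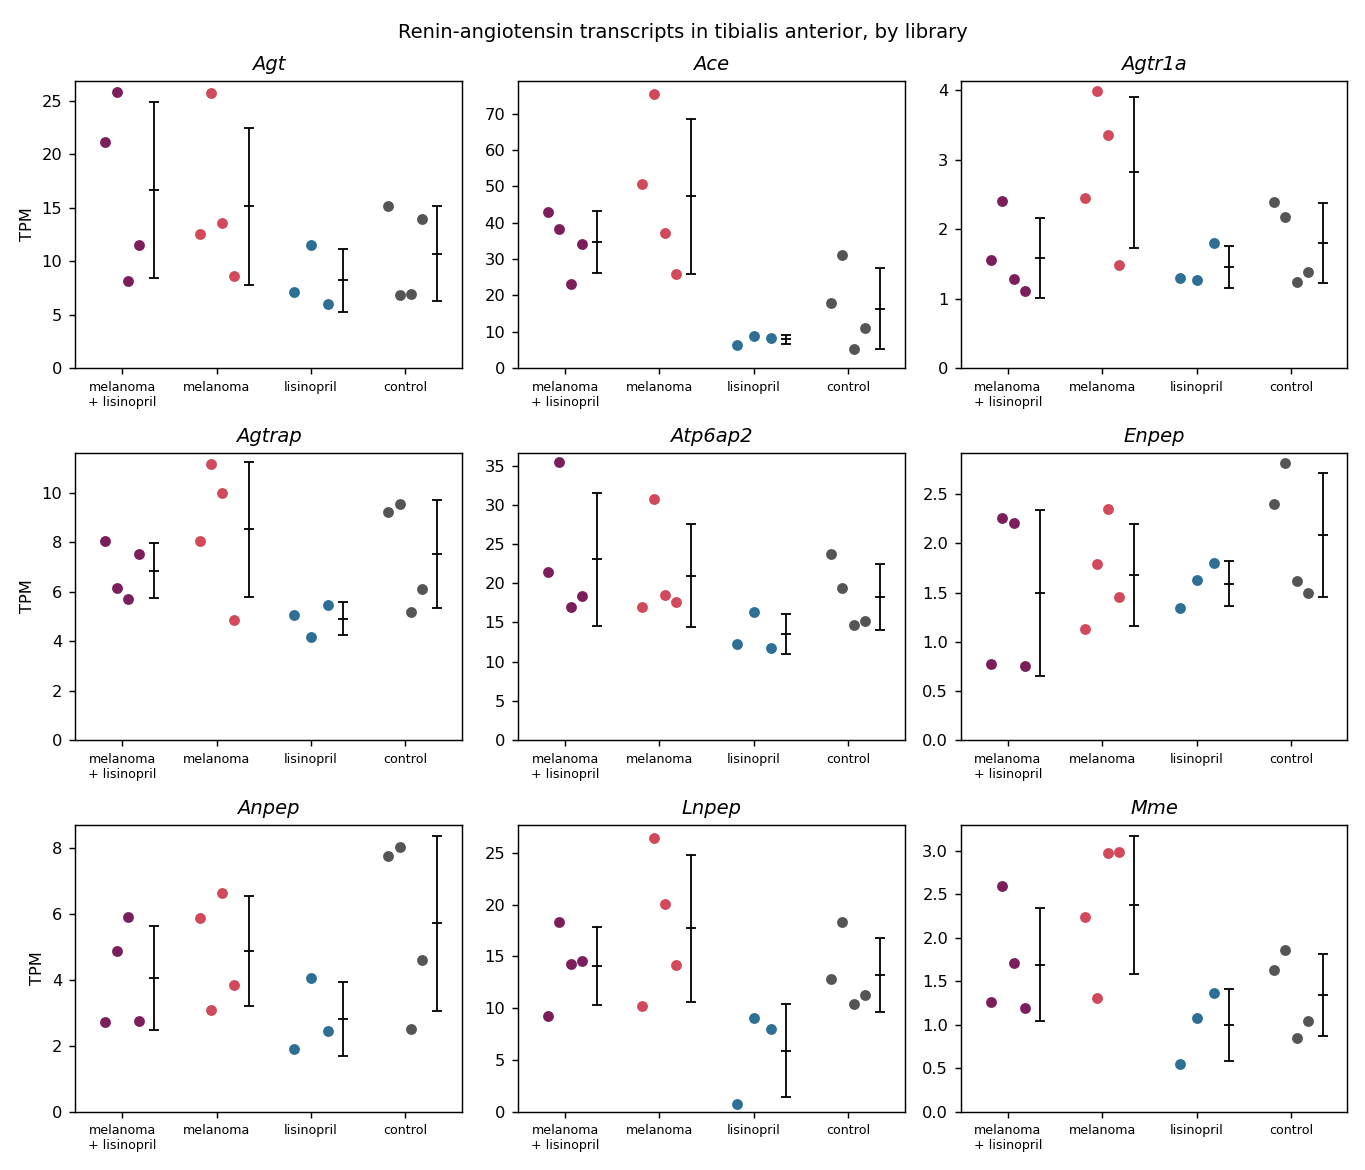
Points give TPM on the y axis for each library of the 4 groups on the x axis, with the mean and SD beside them, in a panel for each of the 9 transcripts. Ace lies at 23.2 TPM or more in all tumour-bearing libraries, and at 31.1 TPM in control 2 and 17.9 TPM or less in the other tumour-free libraries.

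**Figure D2:**
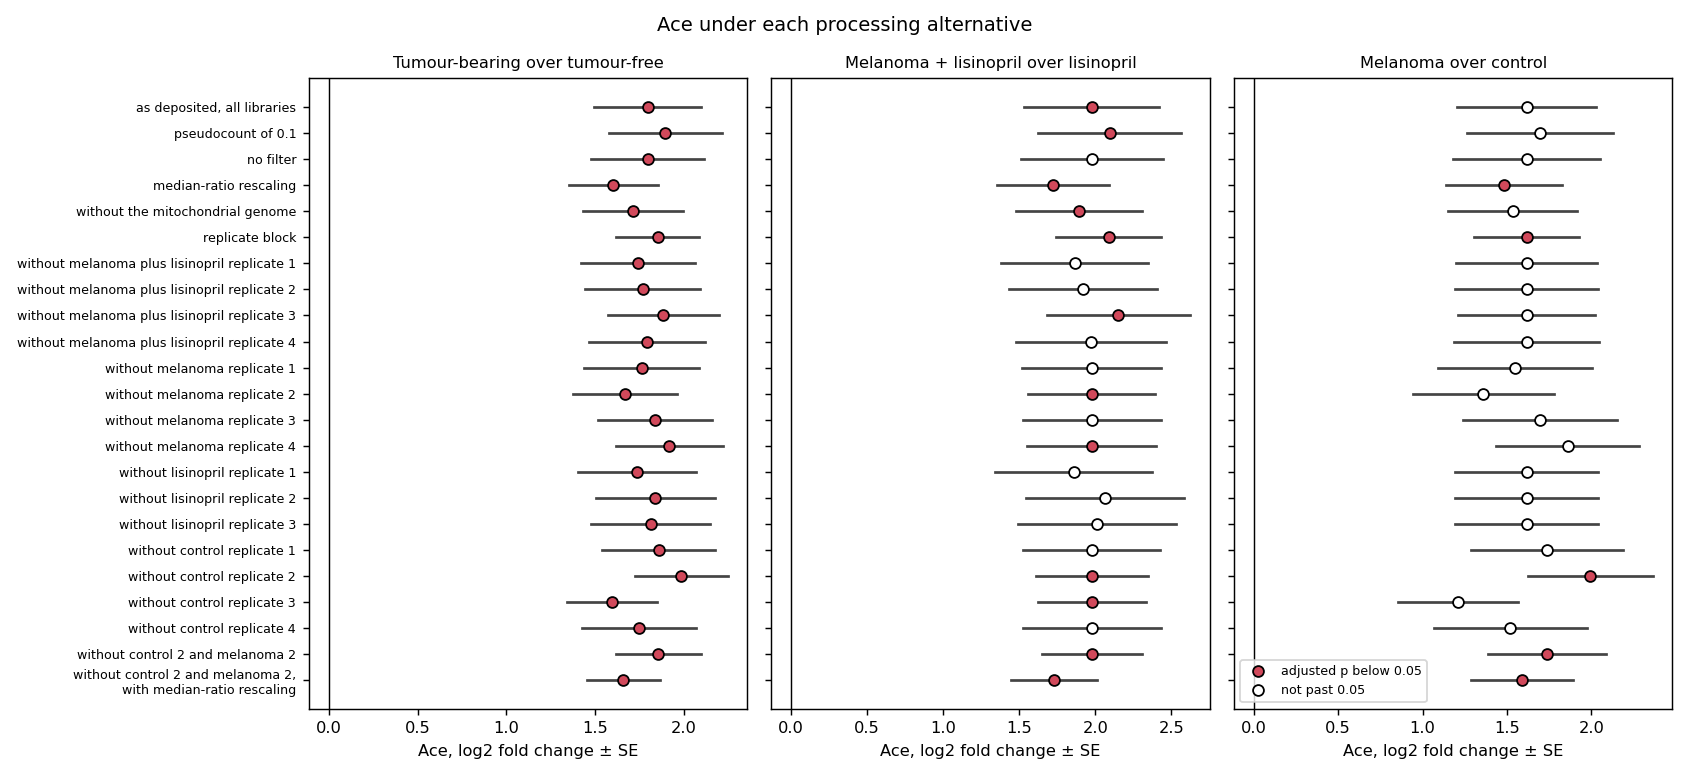
Each row gives the Ace log2 fold change with its SE on the x axis, for the values as deposited and for 22 alternatives in processing or libraries, with filled points where the adjusted p is below 0.05. The average tumour effect passes in every row, the contrast within the drug-treated groups in 11 of 22 alternatives and the contrast without the drug in 5 of 22.

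Among the 9 transcripts the order of levels differed between tumour-bearing and tumour-free muscle. TPM are scaled for transcript length, and levels of different genes are set side by side on that scale as a description. The order is uncertain, because the counter and annotation behind the values are unknown. Ace had the highest mean of the 9 in both tumour-bearing groups, and Atp6ap2 had the highest in the lisinopril and control groups. In both tumour-bearing groups and in control muscle the ranges of Ace and Atp6ap2 overlapped. Ace exceeded Atp6ap2 in 8 of 8 tumour-bearing libraries, by ratios of 1.08 to 2.98, and in 1 of 7 tumour-free libraries, where the ratios were 0.363 to 1.60. Control 2 was that library. Below these, the order of means in melanoma plus lisinopril muscle was Agt, Lnpep, Agtrap, Anpep, Mme, Agtr1a and Enpep, and the ranges overlapped between neighbours except for Lnpep over Agtrap and Anpep over Mme. In melanoma muscle the order was Lnpep, Agt, Agtrap, Anpep, Agtr1a, Mme and Enpep, and all neighbouring ranges overlapped. In lisinopril muscle it was Agt, Ace, Lnpep, Agtrap, Anpep, Enpep, Agtr1a and Mme, with separate ranges for Atp6ap2 over Agt, Agtrap over Anpep and Anpep over Enpep. In control muscle it was Ace, Lnpep, Agt, Agtrap, Anpep, Enpep, Agtr1a and Mme, and all neighbouring ranges overlapped. Against all kept genes, the mean level of Ace over the 15 libraries lay at the 79.3 percentile and that of Mme, the lowest of the 9, at the 12.5 percentile.

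The receptor Agtr1a (chr13:30336441-30382867, plus strand) transmits the constrictor and growth actions of angiotensin II. Agtr1a had 1.55, 2.40, 1.28 and 1.11 TPM in melanoma plus lisinopril muscles and 2.44, 3.98, 3.36 and 1.48 TPM in melanoma muscles. It had 1.30, 1.26 and 1.81 TPM in lisinopril muscles and 2.39, 2.18, 1.24 and 1.38 TPM in control muscles. All values were low, and the 3 highest came from melanoma 1, 2 and 3, although melanoma 1 (2.44 TPM) was close to melanoma plus lisinopril 2 and control 1. The difference between melanoma plus lisinopril and melanoma muscle was -0.54 ± 0.23 (log2, SE; 95% interval -1.02 to -0.06), with an unadjusted limma p of 0.0304 and an adjusted p of 0.9999. For tumour-bearing muscle the average effect was 0.24 ± 0.17 (adjusted p = 0.298). Reads of Agtr1a and its close copy Agtr1b may have been split by the counting, which makes both values uncertain, and Agtr1b was at most 0.067 TPM in any library.

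Agtrap (chr4:148077061-148088031, minus strand) binds the tail of that receptor and promotes its internalisation. It ranged from 5.69 to 8.04 TPM in melanoma plus lisinopril, 4.87 to 11.2 TPM in melanoma, 4.18 to 5.47 TPM in lisinopril and 5.19 to 9.57 TPM in control muscle. Its average tumour effect was 0.27 ± 0.17 (adjusted p = 0.242). Atp6ap2 (chrX:12587801-12617049, plus strand) binds prorenin and renin and is also an accessory subunit of the vacuolar proton pump. Atp6ap2 had 21.4, 35.4, 17.0 and 18.4 TPM in melanoma plus lisinopril, 17.0, 30.8, 18.5 and 17.6 TPM in melanoma, 12.3, 16.4 and 11.8 TPM in lisinopril and 23.7, 19.4, 14.6 and 15.1 TPM in control muscles. Its highest values were in melanoma plus lisinopril 2 and melanoma 2, and the other tumour-bearing values lay within the tumour-free range. Averaged over both arms its tumour effect was 0.43 ± 0.18 (95% interval 0.05 to 0.81, adjusted p = 0.0941) and did not pass.

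**Figure D3:**
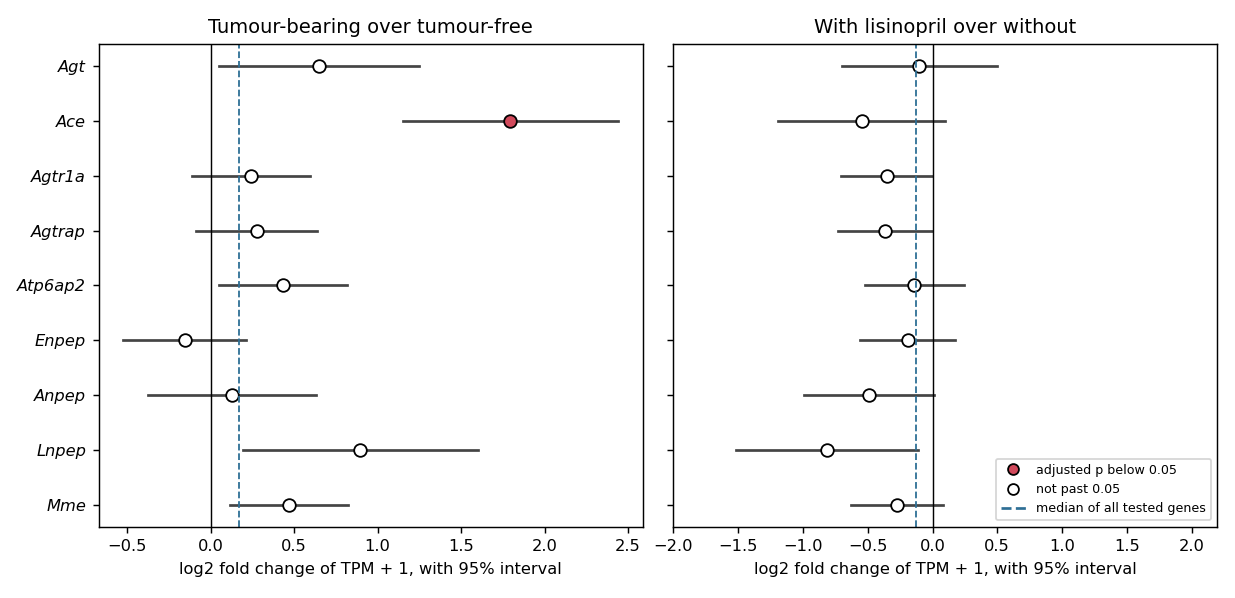
Points give the log2 fold change of TPM + 1 on the x axis with its 95% interval for each of the 9 transcripts, for tumour-bearing over tumour-free muscle on the left and for muscle with over without lisinopril on the right. Ace, at 1.80, is the single filled point (adjusted p below 0.05), and the dashed lines mark the medians of all tested genes at 0.17 and -0.13.

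Of the 4 peptidases that act on angiotensins or related peptides, none passed in any comparison. Enpep (chr3:129269175-129332720, minus strand), aminopeptidase A, takes the first residue from angiotensin II to give angiotensin III. It was between 0.754 and 2.26 TPM in melanoma plus lisinopril, 1.13 and 2.35 TPM in melanoma, 1.35 and 1.80 TPM in lisinopril and 1.49 and 2.81 TPM in control muscle. Enpep was the only transcript of the 9 with a negative average tumour effect, at -0.16 ± 0.17 (log2, SE; adjusted p = 0.518). Anpep (chr7:79821803-79861059, minus strand), aminopeptidase N, shortens angiotensin III to angiotensin IV. It was between 2.72 and 5.90 TPM in melanoma plus lisinopril, 3.09 and 6.64 TPM in melanoma, 1.89 and 4.07 TPM in lisinopril and 2.50 and 8.04 TPM in control muscle. The groups overlapped widely, and the average tumour effect was 0.13 ± 0.24 (adjusted p = 0.711).

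Mme (chr3:63241537-63386030, plus strand), neprilysin, cuts angiotensin I to a shorter vasodilator peptide and degrades several other peptide hormones. Mme had 1.26, 2.60, 1.71 and 1.19 TPM in melanoma plus lisinopril muscles and 2.24, 1.30, 2.97 and 2.98 TPM in melanoma muscles. It had 0.546, 1.08 and 1.36 TPM in lisinopril muscles and 1.62, 1.85, 0.851 and 1.04 TPM in control muscles. In 4 of the 8 tumour-bearing libraries Mme was above every tumour-free library, and the other 4 lay within the tumour-free range. It averaged 2.03 ± 0.763 TPM in tumour-bearing muscle and 1.19 ± 0.452 TPM in tumour-free muscle (SD, n = 8 and 7). Its average tumour effect of 0.47 ± 0.17 had an adjusted p of 0.0596. It passed on leaving out control 2 (0.52, adjusted p = 0.0296) or melanoma 2 (0.56, adjusted p = 0.0328). Of all genes, 3953 of 11809 passed without control 2 and 1639 of 11859 without melanoma 2, against 2141 of 11923 with all libraries.

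Lnpep (chr17:17521410-17625050, minus strand) encodes the insulin-regulated aminopeptidase, which travels with the glucose transporter vesicles of muscle and fat and binds angiotensin IV. Lnpep had 9.21, 18.4, 14.3 and 14.5 TPM in melanoma plus lisinopril muscles and 10.2, 26.4, 20.1 and 14.1 TPM in melanoma muscles. It had 0.770, 9.01 and 7.95 TPM in lisinopril muscles and 12.8, 18.4, 10.4 and 11.2 TPM in control muscles. Melanoma 2 and 3 lay above every tumour-free library, and lisinopril 1 lay far below the other 14. For Lnpep the average tumour effect was 0.90 ± 0.33 (95% interval 0.19 to 1.60, adjusted p = 0.0662), and without lisinopril 1 it was 0.49 (adjusted p = 0.142). It passed without control 2, at 0.98 with an adjusted p of 0.0416, where 3953 of all 11809 genes tested passed. Between melanoma plus lisinopril and lisinopril muscle the difference was 1.44 ± 0.48 (adjusted p = 0.124), and without lisinopril 1 it was 0.64 (adjusted p = 0.433). With the replicate number as a block it was 1.48 and passed (adjusted p = 0.0422), as did 356 of all 11923 genes.

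Lnpep has the longest annotated transcript of the 9, at 12052 bases. Lisinopril 1 was also the library in which long transcripts as a whole were lowest. Over 637 genes with an annotated transcript of at least 8000 bases, a length chosen after the data had been seen, the median deviation from all genes was -0.25 on the log2 scale in lisinopril 1 and -0.14 to 0.14 in the other 14 libraries. The genes whose pattern over the 15 libraries was most like that of Lnpep were Pggt1b and Alg10b (Pearson r of 0.97 and 0.96 on the log2 scale, 0.96 and 0.93 with group means removed). In lisinopril 1 Pggt1b had 1.93 TPM and Alg10b 2.14 TPM, and in the other 14 libraries Pggt1b had at least 6.44 TPM and Alg10b at least 8.01 TPM. Their longest annotated transcripts had 7477 and 6644 bases, below the length of 8000 used above. All these correlations include lisinopril 1, and none was computed without it. The part of transcript length in the Lnpep values was not tested.

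**Figure D4:**
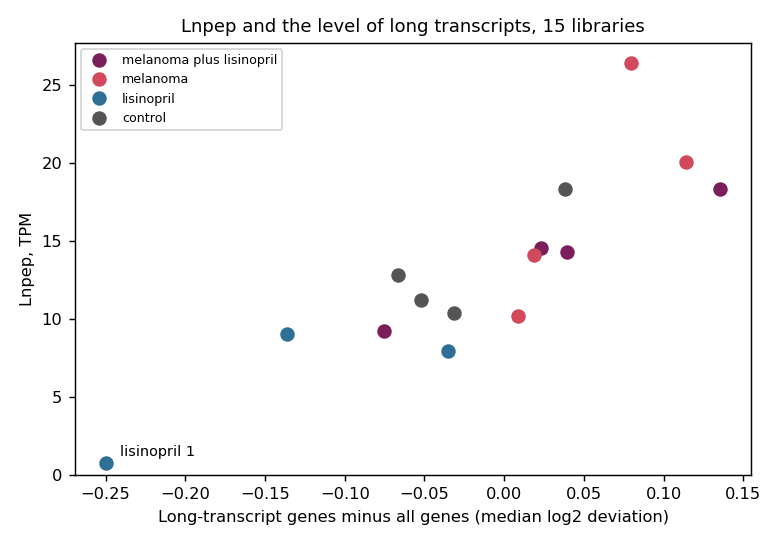
Each point is a library, with Lnpep in TPM on the y axis and, on the x axis, the median log2 deviation of 637 long-transcript genes minus that of all genes. Lisinopril 1 lies lowest on both axes, at 0.770 TPM and -0.25.

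Taken as a list, the 9 transcripts had a median average tumour effect of 0.43 and 8 were above 0, and all genes had a median of 0.17 with 8321 of 11923 above 0. By role, the precursor, the 3 receptor-associated transcripts and the 4 peptidases held no member that passed, and the converting enzyme was the single member that did. At an unadjusted limma p below 0.05 there were 5 of 9 (Ace, Mme, Lnpep, Atp6ap2 and Agt), or 55.6%, and 38.0% of all genes. In melanoma against control muscle the median of the 9 was 0.35 and that of all genes 0.10. In melanoma plus lisinopril against lisinopril muscle the median of the 9 was 0.42 and that of all genes 0.23. These comparisons share libraries with the average tumour effect.

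Lisinopril, averaged over tumour-bearing and tumour-free muscle, gave no call among the 9 transcripts or among all 11923 genes (0.0% passed). The log2 differences for the drug were below 0 for 9 of 9 transcripts, with a median of -0.36, and they were below 0 for 9679 of the 11923 genes tested, with a median of -0.13. The lisinopril libraries had low median-ratio size factors (0.801, 0.877 and 0.882), and with rescaling the median of all genes was -0.011. The difference for Ace, the drug's target, was -0.55 ± 0.30 (95% interval -1.19 to 0.10, adjusted p = 0.676). That interval includes no change and a fall of 1.19. After subtracting the median of all genes, -0.42 remained for Ace. Ace averaged 23.2 ± 15.5 TPM with the drug and 31.8 ± 22.8 TPM without it (SD, n = 7 and 8), and the ranges overlapped. Lnpep had the lowest of the 9 values at -0.81 ± 0.33 (adjusted p = 0.676), and without lisinopril 1 it was -0.41 (adjusted p = 0.908). At an unadjusted limma p below 0.05 there were 3 of 9, Lnpep, Agtrap and Agtr1a, and 631 genes in all (5.29%).

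The same held within each tumour state. In lisinopril against control muscle 0 of 9 passed, as did 0.0% of all genes, with 2 of 9 and 461 genes in all at an unadjusted limma p below 0.05. All 9 differences were below 0, for example -0.73 ± 0.44 for Ace (95% interval -1.67 to 0.22) and -0.76 ± 0.35 for Anpep, and 10135 of 11923 genes were below 0. Lnpep was lower without overlap between these groups (1 of 9), which was so in either direction for 4.34% of all genes, and its difference of -1.36 ± 0.48 became -0.55 without lisinopril 1. In melanoma plus lisinopril against melanoma muscle 0 of 9 and 0.0% of all genes passed, with 1 of 9, Agtr1a, and 189 genes in all at an unadjusted limma p below 0.05. Ace differed by -0.37 ± 0.41 there (95% interval -1.24 to 0.51). For the interaction of tumour and drug, 0 of 9 and 0.0% of all genes passed in limma, with 0 of 9 and 151 genes at an unadjusted p below 0.05. The Lnpep interaction of 1.09 ± 0.66 became 0.29 without lisinopril 1.

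Other genes of the angiotensin and kinin pathways gave 2 higher and 0 lower among 24 that could be tested, of 35 in the list, while 14.5% of all genes passed as higher and 3.45% as lower. Ece1, the endothelin-converting enzyme and also a kinin-cutting peptidase, had 59.7, 62.4, 52.1 and 53.1 TPM in melanoma plus lisinopril muscles and 55.1, 96.0, 54.8 and 41.2 TPM in melanoma muscles. It had 24.3, 23.9 and 28.4 TPM in lisinopril muscles and 45.6, 50.6, 21.3 and 30.3 TPM in control muscles. Melanoma 4 was the only tumour-bearing library of Ece1 within the tumour-free range. Its average tumour effect was 0.93 ± 0.19 (adjusted p = 0.00836). Kng2, a kininogen from which bradykinin is released, had 1.11, 1.78, 0.351 and 0.822 TPM in melanoma plus lisinopril muscles and 1.74, 1.53, 1.33 and 0.453 TPM in melanoma muscles. It was listed at 0.0149, 0 and 0 TPM in lisinopril muscles and had 0.261, 0.519, 0.0435 and 0.0327 TPM in control muscles. Kng2 values were low throughout, 6 of 8 tumour-bearing libraries lay above every tumour-free library, and the average tumour effect was 0.92 ± 0.17 on the log2(TPM + 1) scale (adjusted p = 0.00490). Kng2 reached 1 TPM in 5 tumour-bearing and 0 tumour-free libraries, so it met the filter on low values only through the libraries in which it was high. Kng2 passed with no filter and under the other alternatives, 22 in all, with an adjusted p of at most 0.0156. These share the same libraries, and the filtered ones reuse the filter rule, so their agreement is not separate support. Kng2 has a close copy, Kng1, so that its reads are uncertain. No other comparison gave a call in this list.

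Renin itself (Ren1) was at most 0.0741 TPM and listed at 0 in 8 of 15 libraries. Mas1, a receptor for a vasodilator angiotensin fragment, was at most 0.141 TPM. The other angiotensin II receptor, Agtr2, had 0.0379, 0.116, 0.177 and 0.0144 TPM in melanoma plus lisinopril, 0.174, 0.0428, 0.844 and 0.147 TPM in melanoma, 0.0336, 1.38 and 0.0121 TPM in lisinopril and 2.52, 1.62, 0.558 and 1.15 TPM in control muscles. All 8 tumour-bearing libraries of Agtr2 were below 1 TPM, and 4 tumour-free libraries, 3 of them control, were above it. Its average tumour effect was -0.61 ± 0.21 (adjusted p = 0.0579) and did not pass. Agtr2 met the filter only through those 4 tumour-free libraries. The kinin receptors Bdkrb1 and Bdkrb2 lay between 0.0878 and 0.959 TPM and between 0.195 and 2.12 TPM over all libraries. Cma1, a mast cell protease, had an average tumour effect of 0.75 ± 0.25 and Cpa3, a mast cell carboxypeptidase, of 0.66 ± 0.22, each with an adjusted p of 0.0522. Neither passed. Mcpt4, another mast cell protease of the list, had 0.28 ± 0.26 (adjusted p = 0.444), beside a median of 0.17 for all genes.

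**Figure D5:**
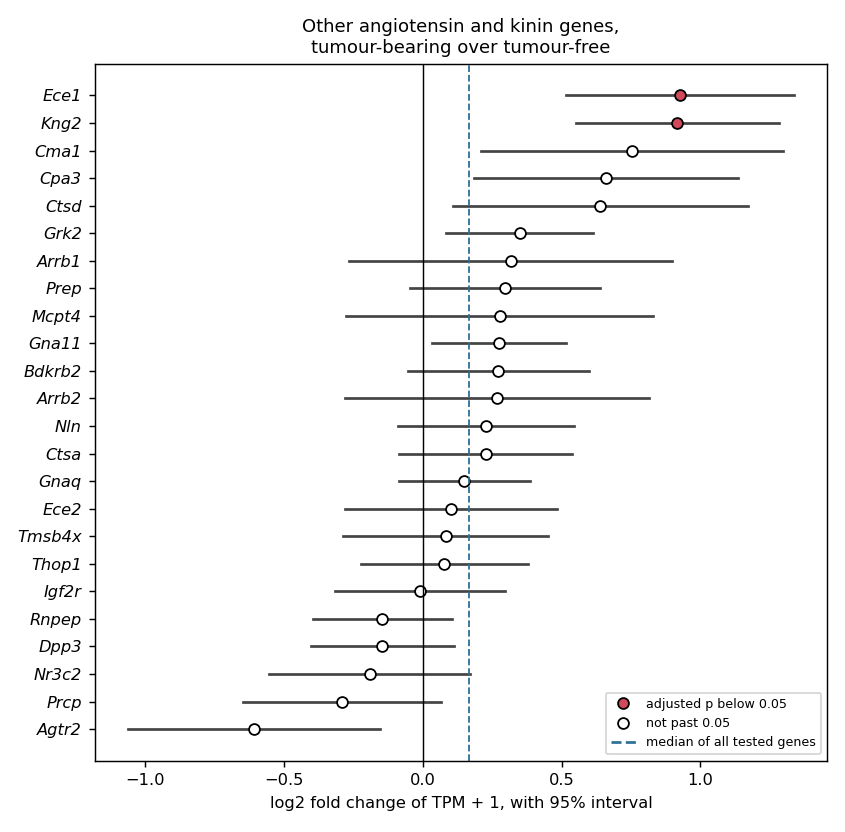
Points give the log2 fold change of TPM + 1 on the x axis with its 95% interval, tumour-bearing over tumour-free muscle, for 24 other genes of the angiotensin and kinin pathways. Ece1 at 0.93 and Kng2 at 0.92 are the filled points (adjusted p below 0.05), Agtr2 at -0.61 is lowest, both Kng2 and Agtr2 met the filter on low values only through the libraries in which they were high, and the dashed line is the median of all genes at 0.17.

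The patterns of the 9 transcripts over the libraries were compared with those of all genes averaging at least 5 TPM. The 5 genes most like Ace were Ifitm2, Apod, Tnks1bp1, Slc3a2 and Lrrc8a, each with a Pearson r of 0.98 over 15 libraries, and of 0.92 to 0.96 with group means removed. Genes this close to Ace over the same libraries share its tumour difference by their choice, which is given as a description, with log2 values of 1.22 for Ifitm2, 2.54 for Apod, 0.71 for Tnks1bp1, 1.06 for Slc3a2 and 0.91 for Lrrc8a. Apod encodes a secreted lipocalin, Slc3a2 the heavy chain of several amino acid transporters and Lrrc8a a subunit of the volume-regulated anion channel. Agt was most like Zfp623 (r = 0.90), Agtr1a like Trim11 (0.88), Agtrap like Prkab1 (0.91), Atp6ap2 like Ppp2ca (0.95), Enpep like Naa40 (0.87), Anpep like Nid1 (0.92) and Mme like C1ra (0.91). Among the 36 pairs of the 9 transcripts, r with group means removed had a median of 0.39 and ran from -0.14 to 0.79. All these values share the TPM scale of each library, on which most genes move together, and they are given as a description.

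Markers of the cell types that could carry these transcripts are set beside 14.5% of all genes that passed as higher and 3.45% as lower. Of 10 endothelial markers, Tek and Esam rose, at 0.62 ± 0.20 and 0.84 ± 0.19, and Kdr fell, at -0.85 ± 0.17, in the average tumour effect (adjusted p of 0.0455, 0.0129 and 0.00674). Their summed level was 157 to 247 TPM in tumour-bearing and 122 to 260 TPM in tumour-free muscle, and none of the 10 was at 0 in a whole group. As a percentage of that sum, a ratio formed after the data had been seen, Ace was 14.7 to 30.5 in tumour-bearing and 3.72 to 12.0 in tumour-free libraries. Control 2 had the highest endothelial sum of all libraries, 260 TPM, which lowers its ratio. How many of all genes would separate on the same ratio was not computed, so no conclusion is drawn from these ranges. Macrophage markers passed as higher for 2 of 6, with sums of 42.3 to 145 TPM in tumour-bearing and 17.3 to 99.5 TPM in tumour-free muscle. Neutrophil markers did for 5 of 5, with sums of 32.1 to 347 TPM in tumour-bearing and 10.3 to 96.5 TPM in tumour-free muscle. Fibro-adipogenic markers passed as higher for 3 of 6 (Gsn, Pdgfra and Dcn). The others were below 0 without passing: Col3a1 at -1.58 ± 0.67, Col1a1 at -0.96 ± 0.59 and Dpt at -0.13 ± 0.30. Fibro-adipogenic sums overlapped, at 647 to 1235 TPM in tumour-bearing and 294 to 1142 TPM in tumour-free muscle. Pericyte markers passed as higher for 0 of 6 and smooth muscle markers for 1 of 3 tested. Of 2 lymphocyte markers tested, 1 fell, with sums of 2.46 to 20.8 TPM in tumour-bearing and 33.2 to 229 TPM in tumour-free muscle. Lisinopril 1 set the tumour-free limits of 17.3, 10.3 and 294 TPM for macrophage, neutrophil and fibro-adipogenic sums and of 229 TPM for lymphocytes. Of 8 glucocorticoid-responsive genes, 5 rose, with sums of 594 to 1515 TPM in tumour-bearing and 392 to 698 TPM in tumour-free muscle. The part of these cell types and of glucocorticoid-responsive transcription in the Ace difference was not tested.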

How the data were processed

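Polyadenylated RNA from whole tibialis anterior was made into libraries with a stranded kit (TruSeq) and sequenced on a NovaSeq instrument, per the labels' protocols. The authors deposited TPM for each gene, with mm10 as the genome build, per the submitters' processing notes. For the aligner, counter, annotation and strand setting, nothing is given in the sources used here. TPM keep no depth, so no counting interval was possible. The time after implantation rests on the series' design text, while the protocol label names another tumour model and time. Groups followed the treatment labels.

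Of 21659 symbols with any value, 11923 with at least 1 TPM in at least 3 libraries were kept, put on the log2(TPM + 1) scale and modelled by limma 3.58.1, run in R 4.3.3 (4 group means, 11 residual degrees of freedom, prior 3.80, trended eBayes). Tests were two-sided over 7 contrasts, with Benjamini-Hochberg adjustment over all kept genes in a contrast and a threshold of 0.05. The step was tested on simulated data. Values of TPM carry standard deviations and log2 values standard errors. The labels do not say that the replicates were separate animals, so p-values measure the spread between these samples.

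The 9 members and all lists were chosen with earlier results of these data known. All members are named, and other pathway genes if past the threshold or among the receptors and renin. Cma1, Cpa3 and Mcpt4 were added after their values were seen. Patterns most like a member were picked by Pearson r among genes averaging at least 5 TPM (the 5 closest for Ace, the 2 closest for others). A further gene of the list is not reported here. Positions come from GENCODE vM21; promoter windows from RefSeq were read with Python 3.11.15. The only gene with exons overlapping a member, on the opposite strand of Ace, was listed at 0. Between melanoma plus lisinopril and lisinopril, all 3 same-numbered pairs of libraries had positive correlations of deviations (0.13, 0.14 and 0.20). The labels state no pairing. Differently numbered pairs were not compared, so these correlations cannot tell whether the libraries were paired. The fit with a replicate block, made over all 4 groups, is given beside that comparison as an alternative only. Alternatives were a pseudocount of 0.1, no filter, median-ratio rescaling, removal of 37 mitochondrial genes, a replicate block, leaving out each library and leaving out control 2 with melanoma 2; the last with rescaling was chosen after seeing the data.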

Additional observations from a re-analysis of the deposited data

Results flagged for a closer look

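Atp6ap2 in melanoma 2 stood apart from the other melanoma libraries, at 30.8 TPM against 17.0, 18.5 and 17.6 TPM, by a gap larger than Dixon's 95% critical value for a group of 4. It was the single such value in 27 tests of 9 transcripts in the 3 groups of 4 libraries, and chance alone gives about 5% of groups such a value. Atp6ap2 was highest of all in melanoma plus lisinopril 2, at 35.4 TPM.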

How the results depend on the processing

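Over 65 results and 22 alternatives, 1370 of 1430 values kept their direction and their side of the threshold, and no result that passed changed direction. The drug contrasts and the interaction called 0 genes in every alternative, so their values had no change of side to show. Of the 9 transcripts only Ace had passed, and the count of kept values is no measure of robustness. The average tumour effect on Ace passed under all 22 alternatives, at 1.59 to 1.98 (adjusted p 3.73e-04 to 0.0117), and Ece1 and Kng2 passed under all 22 as well. Kng2 met the filter only through tumour-bearing libraries, and the filtered alternatives reuse that rule. Rescaling moved the median of all genes in the average tumour effect from 0.17 to -0.0039. The number of the 9 transcripts that passed was 1 in the average tumour effect, 3 with a replicate block (Ace, Lnpep and Atp6ap2), 2 without control 2 and melanoma 2, with or without rescaling (Ace and Mme), and 1 to 3 on leaving out single libraries. For melanoma plus lisinopril against lisinopril the number was 1, 0 without a filter, 2 under the block (Ace and Lnpep) and 0 to 1 on leaving out single libraries. In melanoma against control it was 0, 1 (Ace) with rescaling, with the block and without control 2 and melanoma 2 (with or without rescaling), and 0 to 1 on leaving out single libraries. The Ace difference in melanoma against control was 1.48 with rescaling (adjusted p = 0.0493), 1.62 with the block (0.0336), 1.74 without control 2 and melanoma 2 (0.0253), 1.59 with both (0.0183) and 1.21 to 1.99 on leaving out single libraries. With no filter the melanoma plus lisinopril against lisinopril difference was 1.98 (adjusted p = 0.109), where 21659 genes were tested, and 1.86 to 2.15 on leaving out single libraries. Over all groups, 9 of 21 same-numbered pairs had a correlation of deviations above 0.1 (-0.15 to 0.36). Between melanoma plus lisinopril and lisinopril all 3 pairs did. Without differently numbered pairs for comparison, a pairing could not be judged from these values. All genes called in the average tumour effect numbered 2141, against 2172 with a replicate block and 1337 with no filter. They numbered 3669 without control 2 and melanoma 2 (3643 with rescaling). On leaving out single libraries they numbered 743 (without lisinopril 1) to 3953 (without control 2). In melanoma plus lisinopril against lisinopril they numbered 177, 14 with no filter and 356 with the block. In melanoma against control they numbered 77, 163 with rescaling, 120 with the block and 256 without control 2 and melanoma 2 (629 with rescaling).

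Differences that changed sign had not passed. Without control 2 and melanoma 2, melanoma against control gave -8.8e-04 for Agt (-0.15 with rescaling) and 0.19 for Anpep (0.066 with rescaling), and with rescaling -0.016 for Agtrap and -0.13 for Atp6ap2. The Enpep interaction was -9.9e-04 (-0.057 with rescaling). Also with that rescaling, the average drug effect was 0.020 for Agt and 0.038 for Atp6ap2, and Agtr1a in melanoma plus lisinopril against lisinopril was -0.10. Rescaling of all libraries gave 0.027 for Agt in the average drug effect, -0.11 for Agtr1a in melanoma plus lisinopril against lisinopril and -0.025 for Anpep in the average tumour effect. Without the mitochondrial genome that Agtr1a value was -0.032. On leaving out single libraries, melanoma against control ranged from -0.42 to 0.034 for Anpep and from -0.016 to 0.31 for Atp6ap2. Melanoma plus lisinopril against lisinopril ranged from -0.085 to 0.16 for Agtr1a and from -0.27 to 0.032 for Enpep. The average tumour effect on Anpep ranged from -0.012 to 0.24, and the average drug effect on Agt from -0.22 to 0.037. Melanoma plus lisinopril against melanoma ranged from -0.14 to 0.38 for Agt and from -0.11 to 0.30 for Atp6ap2. The interaction ranged from -0.016 to 0.77 for Ace, from -0.067 to 0.23 for Enpep and from -0.27 to 0.041 for Mme. The cause was not tested for any of these. With 3 or 4 libraries a group, small differences of the low transcripts Agtr1a, Enpep and Mme could not be resolved.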
